A study of Mus musculus with 12 samples.

Results

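The messages described here encode the PPAR and RXR nuclear receptors and the coregulators that work with them: Pparg, Ppara, Ppard, Rxra, Rxrb, Rxrg, the corepressor Ncor1 and the PGC-1 coactivators Ppargc1a and Ppargc1b. They were chosen as a list of 9 genes, each through array rows annotated with that gene symbol alone and, where a gene had several rows, the brightest row on average. Of the 9, 8 had such a row, among 19687 genes in all; Ncor1 had none, so its level was not analysed here. RNA came from the thoracic aorta of 12 male C57BL/6 mice, 1 array per mouse. In 7 transgenic mice, human PPARγ carrying the dominant-negative P467L mutation was driven by the promoter of smooth muscle myosin heavy chain, so the transgene was aimed at vascular smooth muscle and not at the other cells of the vessel. The 5 controls were nontransgenic littermates, and neither group received a treatment. Expression was read as log2 intensity on Affymetrix exon arrays of the mouse 1.0 ST design.

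PPARs are nuclear receptors for fatty acids and their derivatives, and each binds DNA as a dimer with an RXR. Without ligand the dimer can hold corepressors such as NCoR1, and with ligand it takes up coactivators, among them the PGC-1 proteins that drive mitochondrial and fatty acid oxidation genes. In blood vessels PPARγ is known for effects on tone and blood pressure, while in the fat around the aorta it is the main regulator of the adipocyte programme. The P467L mutant is known to bind DNA but to respond poorly to ligand. The comparison asks whether the receptor and coactivator messages read by the arrays differ when that mutant is present in vascular smooth muscle.

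The Pparg row gave 1 value per aorta and did not separate the transcripts that begin at different starts. RefSeq (build GRCm38.p6) lists 3 promoters for mouse Pparg, all on the plus strand, and their sequences are shown because the receptor whose mutant was expressed is made from all of them. They lie at chr6:115360894-115361193, chr6:115362099-115362398 and chr6:115421816-115422115. The furthest downstream is that of the adipose isoform, PPARγ2. Capitals mark matches on either strand to AGGTCA, the half-site that nuclear receptors bind, or to TGACG, the half-site of the cAMP response element.
Pparg promoter 1: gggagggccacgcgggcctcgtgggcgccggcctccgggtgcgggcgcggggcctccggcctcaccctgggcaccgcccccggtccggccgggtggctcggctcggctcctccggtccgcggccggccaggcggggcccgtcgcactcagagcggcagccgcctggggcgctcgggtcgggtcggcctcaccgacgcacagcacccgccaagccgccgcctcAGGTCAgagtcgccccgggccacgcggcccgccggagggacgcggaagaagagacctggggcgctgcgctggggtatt
Pparg promoter 2: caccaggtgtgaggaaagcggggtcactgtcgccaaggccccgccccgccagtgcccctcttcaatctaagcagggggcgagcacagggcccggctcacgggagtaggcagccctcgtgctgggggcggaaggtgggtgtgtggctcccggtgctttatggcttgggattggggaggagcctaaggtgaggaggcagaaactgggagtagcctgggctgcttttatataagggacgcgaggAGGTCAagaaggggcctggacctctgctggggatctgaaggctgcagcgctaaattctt
Pparg promoter 3: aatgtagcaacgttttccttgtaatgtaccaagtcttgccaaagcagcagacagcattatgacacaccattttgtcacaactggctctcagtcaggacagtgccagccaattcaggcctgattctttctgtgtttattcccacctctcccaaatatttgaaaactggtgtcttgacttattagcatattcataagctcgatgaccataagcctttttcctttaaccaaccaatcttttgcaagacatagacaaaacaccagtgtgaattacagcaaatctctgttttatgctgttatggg
Ppargc1a promoter: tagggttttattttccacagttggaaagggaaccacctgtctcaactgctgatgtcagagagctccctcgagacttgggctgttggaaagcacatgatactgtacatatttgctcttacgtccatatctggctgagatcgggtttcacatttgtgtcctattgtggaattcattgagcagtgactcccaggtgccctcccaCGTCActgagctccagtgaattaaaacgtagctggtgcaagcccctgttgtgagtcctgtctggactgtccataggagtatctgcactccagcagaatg
The Ppargc1a promoter, at chr5:51567676-51567975 on the minus strand, is shown beside them as that of a coactivator; the promoter of Ppargc1b was not used here. Capitals in the Ppargc1a promoter mark a TGACG match, and cAMP signalling is a known inducer of this gene in brown fat. Promoters 1 and 2 of Pparg each held 1 AGGTCA match and promoter 3 held none. GC content was 80.3%, 62.7% and 40.3% in the Pparg promoters and 48.7% in that of Ppargc1a. Over the 14 promoters searched, those of all listed genes but Ppargc1b and so including Ncor1, 4 held AGGTCA and 4 held TGACG, against 16.3% and 20.8% of all 32851 promoters of 300 bases. None of the 14 held AGGTCANAGGTCA, the direct repeat spaced by 1 base that PPAR and RXR dimers bind, which occurred in 0.0396% of all promoters. A match is a description of these letters only.

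The arrays were similar in centre, with medians between 4.74 and 4.79 and upper quartiles between 6.10 and 6.38. All 12 smooth muscle markers measured were above a background level of 5.18, set at the 95th percentile of mean intensity over 918 genes of olfactory or vomeronasal receptors. Fat and brown fat markers were also present, with 12 of 13 adipocyte and 8 of 11 brown adipocyte markers above background. In whole-tissue RNA, fewer cells of a type and less RNA per cell cannot be told apart. P467L replicate 4 stood apart in its skeletal muscle markers, with a score of 2.32 (the mean over 14 markers of each value minus that gene's mean), while the other P467L aortas lay between -0.36 and -0.14. Precision is limited by the number of mice.

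No receptor or coactivator message differed between P467L and nontransgenic aorta beyond the spread between mice. Of the 8 measured, 0 reached an adjusted p under 0.05 (limma, Benjamini-Hochberg over all genes), against 0.244% of all genes. At an unadjusted limma p under 0.05 the count was also 0, against 4.82% of all genes. The groups overlapped for all 8, and they did not overlap in 0.726% of all genes. With shares this small over all genes, counts of 0 among 8 do not set the members apart. Differences (P467L minus nontransgenic, log2) ran from -0.37 to 0.057 with a median of -0.017, against a median of 0.0013 over all genes. Of the 8, 6 means were lower in P467L aorta and 2 were higher, against 9738 lower and 9949 higher over all genes. The lower ones include Ppard and Rxrb, at -0.0046 and -0.0044.

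**Figure D1:**
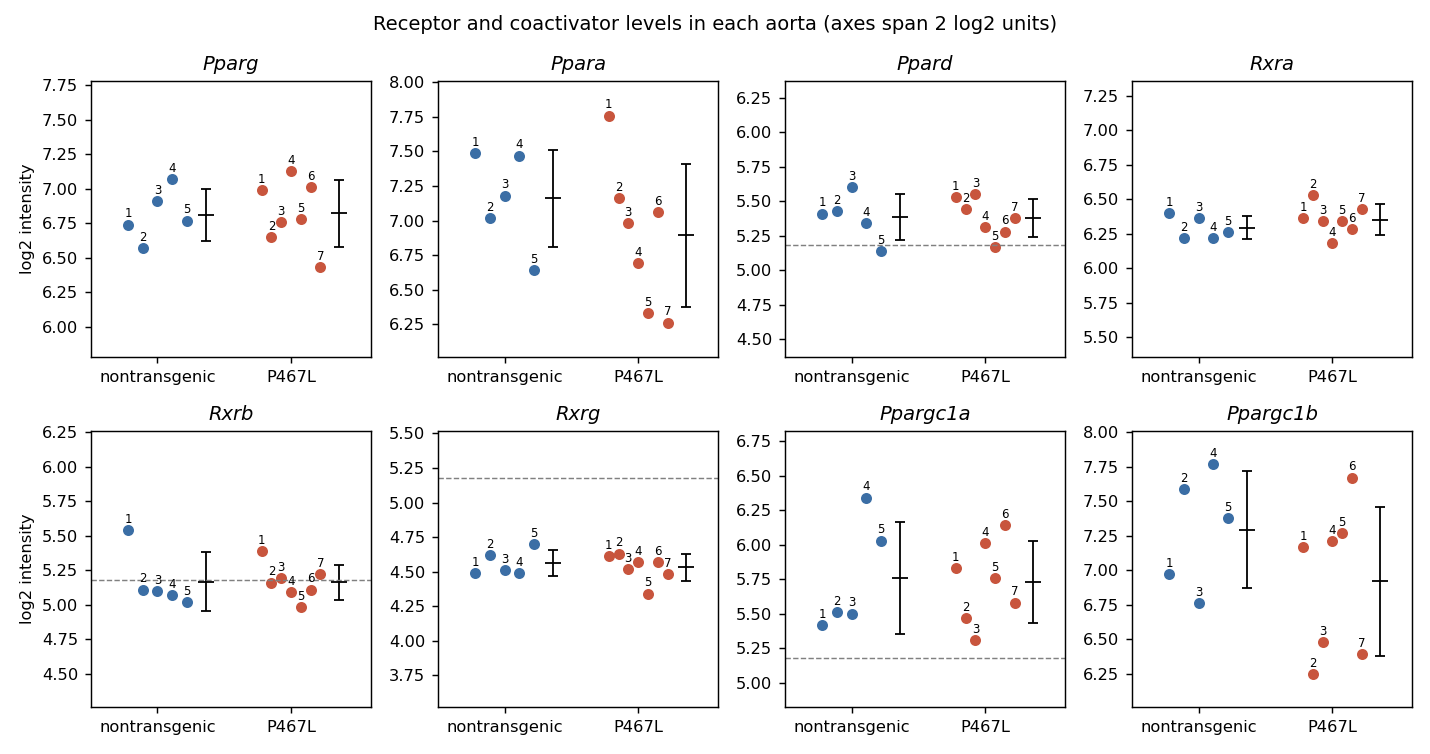
Log2 intensity (vertical axes, each spanning 2 log2 units) of 8 genes in 5 nontransgenic and 7 P467L aortas. Points are single mice with their replicate number, black marks are means ± SD, and the dashed line is the background level of 5.18. The groups overlap in every panel, and Ppara and Ppargc1b spread most.

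Among the receptors for fatty acids, Pparg, the adipogenic and insulin-sensitising member, read 6.74, 6.57, 6.91, 7.07 and 6.77 in nontransgenic replicates 1 to 5. In the 7 P467L aortas the lowest value was 6.43, the median 6.78 and the highest 7.13. The P467L values extended past both ends of the nontransgenic ones. The limma difference was 0.013 ± 0.12 (SE), a ratio of 1.009 with a 95% interval of 0.840 to 1.21 (limma adjusted p = 0.999). Whether mouse probes of this row also detect the human transgene was not tested, so its level says nothing about transgene expression. For the same reason it cannot be read as endogenous Pparg alone.

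Ppara, the PPAR of fatty acid oxidation in liver, heart and brown fat, read 7.49, 7.02, 7.18, 7.47 and 6.64 in nontransgenic replicates 1 to 5. P467L aortas ran from 6.26 through a median of 6.98 to 7.76. Both the lowest and the highest aortas were P467L, replicates 7 and 1. The limma difference of -0.27 ± 0.24 (SE) had a 95% interval of -0.78 to 0.24 (adjusted p = 0.999; exact two-sided permutation p = 0.336). Without the 3 arrays least correlated with the rest (nontransgenic replicate 2, P467L replicates 1 and 2) it was -0.53 ± 0.22, with an unadjusted limma p of 0.0333 and an adjusted p of 0.858. Ppara had 3 further rows, all with means under background (5.08, 3.73 and 2.42), whose differences were -0.031, 0.042 and -0.25.

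Ppard, the widely expressed PPARδ, was just above background. Its nontransgenic values were 5.41, 5.43, 5.60, 5.34 and 5.14, and its P467L values ran from 5.17 through a median of 5.38 to 5.55. Only 10 of 12 aortas exceeded the background level, nontransgenic and P467L replicate 5 being the exceptions. The difference was -0.0046 ± 0.092 (SE), with a ratio between 0.869 and 1.14 at 95% (limma adjusted p = 0.999).

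Of the RXR partners, only Rxra, the main RXR of most tissues, was above background in every aorta. It read 6.40, 6.22, 6.36, 6.22 and 6.26 in nontransgenic aorta, and 6.18, 6.34 and 6.53 as the lowest, median and highest in P467L aorta. Replicates 1 and 3 of the nontransgenic group lay within the upper part of the P467L range. The limma difference was 0.057 ± 0.071 (SE), and the 95% interval of the ratio, 0.935 to 1.16, was among the narrowest of the 8 (limma adjusted p = 0.999). Its residual SD of 0.098 lay at the 6.6th percentile of the 10637 genes above background.

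Rxrb, the broadly expressed RXRβ, lay at background, above it in 4 of 12 aortas. Nontransgenic replicate 1 read 5.54, and the other 4 nontransgenic aortas 5.11, 5.10, 5.07 and 5.02; P467L aortas lay between 4.98 and 5.39 with a median of 5.16. The difference was -0.0044 ± 0.099 (SE; limma adjusted p = 0.999), and 0.089 without nontransgenic replicate 1. Rxrg, the RXR of skeletal muscle and brain, lay under background in all 12 aortas, between 4.49 and 4.70 in nontransgenic and between 4.34 and 4.63 in P467L aorta. Its difference of -0.029 ± 0.071 (SE) is one between background readings, so these values cannot show whether RXRγ content differed.

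The coactivators varied more. Ppargc1a, PGC-1α, which drives mitochondrial biogenesis and thermogenesis, read 5.42, 5.51, 5.50, 6.34 and 6.03 in nontransgenic replicates 1 to 5. P467L aortas ran from 5.31 through a median of 5.76 to 6.14. Nontransgenic replicates 4 and 5 and P467L replicates 4 and 6 were the 4 highest, so high values came from both groups. The limma difference was -0.034 ± 0.18 (SE), a ratio between 0.745 and 1.28 at 95% (limma adjusted p = 0.999). P467L replicate 4, the aorta with the high skeletal muscle score, was among the high ones, and without it the difference was -0.080.

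Ppargc1b, PGC-1β, a coactivator of mitochondrial and lipogenic genes, had the furthest difference from 0. Nontransgenic aortas read 6.97, 7.59, 6.76, 7.77 and 7.38. P467L aortas ran from 6.25 through a median of 7.17 to 7.67. P467L replicates 2, 3 and 7 lay under every nontransgenic aorta, and the other 4 lay inside the nontransgenic range. The limma difference was -0.37 ± 0.26 (SE), with a 95% interval of -0.92 to 0.18 (adjusted p = 0.999; exact two-sided permutation p = 0.226). The further row of this gene (mean 5.25) differed by -0.14 ± 0.11 in a fit of all rows.

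**Figure D2:**
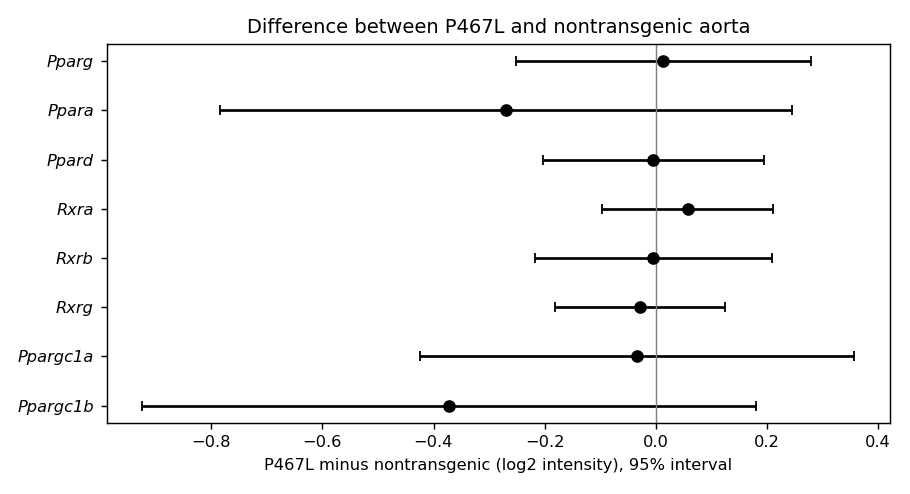
Differences in log2 intensity, P467L minus nontransgenic, for 8 genes (points) with 95% intervals from limma over 12 arrays (bars); the grey line marks 0. Every interval crosses 0, the narrowest being those of Rxra and Rxrg and the widest those of Ppara and Ppargc1b.

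The plot of differences shows how unevenly the 8 comparisons were resolved. The residual SDs of Ppargc1b, Ppara and Ppargc1a, 0.50, 0.46 and 0.34, lay at the 95.9th, 94.8th and 86.4th percentiles of genes above background. Those of Pparg (0.22) and Ppard (0.15) lay at the 58.8th and 29.8th. For Ppargc1b the 95% interval of the ratio, P467L over nontransgenic, ran from 0.527 to 1.13 and for Ppara from 0.581 to 1.18, so these intervals do not exclude ratios down to those bounds.

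Members were next compared with each other over the 12 aortas, in 28 pairs. Rxra and Ppargc1b ran opposite ways, with Pearson r = -0.81 (permutation p = 0.0014, adjusted p = 0.0392) and Spearman rho = -0.83 (permutation p = 0.00161, adjusted p = 0.0451). This was the only pair past the threshold. Without the 2 aortas farthest from the median of Rxra, r was -0.83, and within the 7 P467L aortas it was -0.73. The direction held in all alternatives run, but the call did not. The adjusted permutation p was 0.0559 after subtracting group means and 0.205 after quantile normalization, where r was -0.53. With group means subtracted and arrays of equal replicate number averaged to 1 value, an alternative chosen after seeing the data, r was -0.82 over 7 numbers (exact permutation p = 0.0248, adjusted p = 0.174). Leaving out any of 8 arrays (nontransgenic replicates 3, 4 and 5, P467L replicates 1, 2, 5, 6 and 7) also ended the call, with adjusted permutation p from 0.0560 to 0.172. In all pairs Ppargc1b was read from its brightest row. Its further row (mean 5.25, above background in 8 aortas) was not set against other members. Rxra was highest in P467L replicate 2 (6.53) and lowest in P467L replicate 4 (6.18). There the brightest Ppargc1b row read 6.25 and 7.21, but the further row 5.26 and 5.22.

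Ppargc1a and Ppargc1b had the next strongest relation, r = 0.75 and rho = 0.76 (permutation p = 0.00668 and 0.00567, adjusted p = 0.0935 and 0.0794), and did not pass. Without the 2 aortas farthest from the median of Ppargc1a, r was 0.58, and within P467L aortas 0.90. Pparg and Ppargc1a gave r = 0.66 and rho = 0.66 (permutation p = 0.0217 and 0.0237, adjusted p = 0.202 and 0.149), with r = 0.70 without the 2 farthest aortas and 0.38 after quantile normalization. All of these values share the arrays, and array upper quartiles ran with Ppargc1a (r = 0.58) and Ppargc1b (0.46) and against Rxra (-0.47), none of them past an adjusted permutation p of 0.05; the part of this gradient in the relations was not tested.

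**Figure D3:**
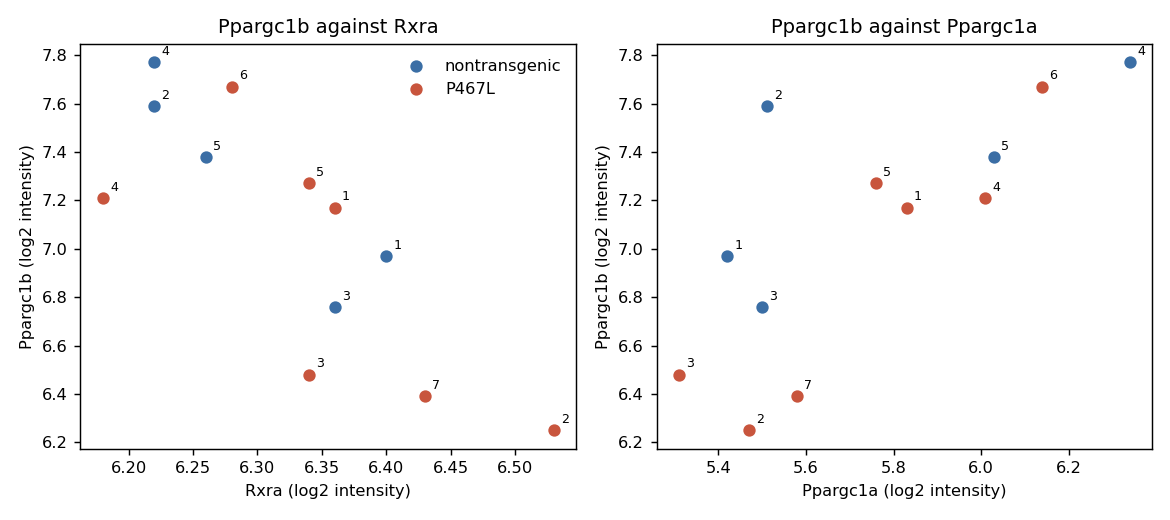
Ppargc1b against Rxra and against Ppargc1a (log2 intensities), each point an aorta with its replicate number, blue for 5 nontransgenic and red for 7 P467L mice. Ppargc1b is high where Rxra is low (r = -0.81) and tends to be high where Ppargc1a is high (r = 0.75), with both groups along each trend. Ppargc1b levels are those of its brightest row, and its further row is not shown.

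Levels were also set against marker scores for adipocytes, brown adipocytes, skeletal muscle and smooth muscle and against the array upper quartile, 40 relations in all. At an adjusted permutation p under 0.05 the count was 0. Ppara and the adipocyte score (13 markers) gave r = 0.73 and rho = 0.62 (permutation p = 0.00677 and 0.0364, adjusted p = 0.157 and 0.266). That relation rested on P467L replicates 5 and 7, the aortas farthest from the median score, without which r was 0.38. Pparg and the brown adipocyte score gave r = 0.73 and rho = 0.54 (permutation p = 0.00783 and 0.0740, adjusted p = 0.157 and 0.314). Without the 2 aortas farthest from the median score r was 0.78, and within the P467L aortas it was 0.71. That score left a gap between 6 aortas at -0.66 to -0.10 (3 of each group) and 6 at 0.20 to 0.53 (4 P467L and 2 nontransgenic). Pparg had a median of 6.70 in the former and 7.00 in the latter, and r within them was 0.35 and -0.58.

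**Figure D4:**
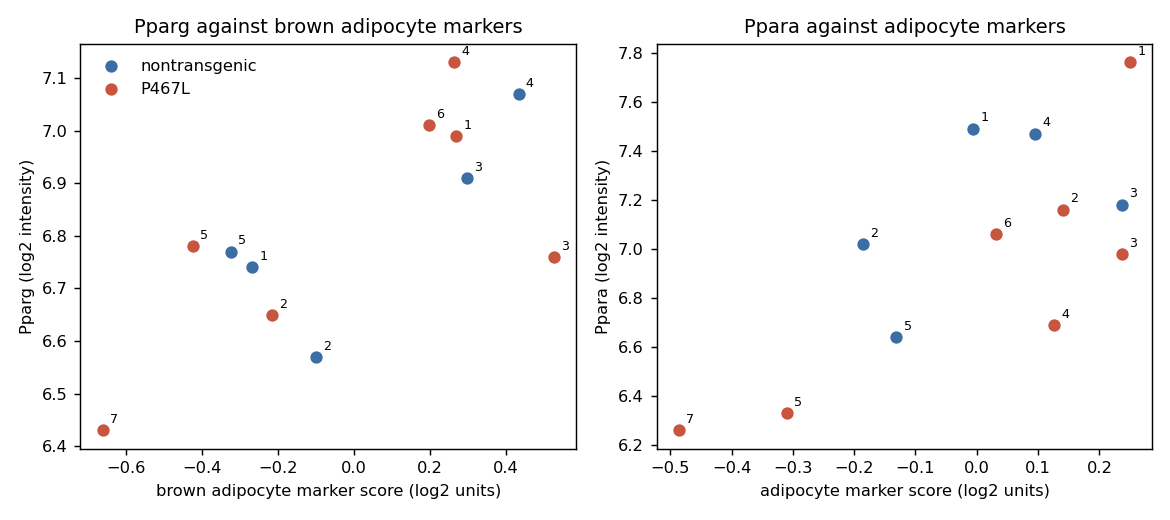
Pparg against the brown adipocyte score and Ppara against the adipocyte score; vertical axes are log2 intensity and horizontal axes the score in log2 units, with points coloured and numbered by mouse and group. Pparg has a median of 6.70 in the 6 aortas with low brown adipocyte scores and 7.00 in the 6 with high ones, and P467L replicate 7 is lowest in both panels.

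Normalization changed this picture. After quantile normalization 8 of the 40 relations passed by Pearson r. Among them were Pparg, Ppara and Ppard with the adipocyte score (r = 0.77, 0.82 and 0.74, adjusted permutation p = 0.0278, 0.0214 and 0.0362). Pparg also passed with the brown adipocyte score (r = 0.76, adjusted permutation p = 0.0278). By Spearman rho none of these fat relations passed (adjusted permutation p = 0.082, 0.0638, 0.0635 and 0.0795). Rxra and Rxrb then ran with the smooth muscle score (r = 0.73 for both; adjusted permutation p = 0.0362 and 0.0278). In the deposited values the same r were 0.040 and -0.039, and Rxrb lay at background. Rxra and Ppard, as normalized levels, ran against the upper quartile of the arrays as deposited (r = -0.85 and -0.72, adjusted permutation p = 0.0120 and 0.0434). As deposited levels they gave r = -0.47 and -0.59. Quantile normalization removes differences in upper quartile between arrays, so it can itself impose negative relations with the deposited upper quartile. How much of these relations it imposed was not tested. The relations that passed by Spearman rho were Rxrb with the smooth muscle score, and Rxra and Rxrb with that upper quartile (adjusted permutation p = 0.0366, 0.0204 and 0.0413). The adipocyte scores overlapped between the groups, from -0.19 to 0.24 in nontransgenic and from -0.49 to 0.25 in P467L aorta. With that score as a covariate the limma differences were 0.015 for Pparg and -0.27 for Ppara, and neither passed.

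By group-centred Pearson r over 12 aortas, the genes most like each member among the 10637 above background were named as a description only. For Pparg they were Ech1 (r = 0.95), Amy1 (0.93) and Hibch (0.91). Ppara was most like Myo10, Capn15 and Dmtn (0.88, 0.86 and 0.86), and Ppard like Myo9b, Prss57 and Cabin1 (0.95, 0.93 and 0.93). For Rxra they were Smarcc2, Tmem200b and Camta2 (0.93, 0.90 and 0.88). Ppargc1a was most like Pcca, Dazap2 and Tmem242 (0.93, 0.92 and 0.91), and Ppargc1b like Klhl11, Ube2e1 and Uevld (0.90, 0.90 and 0.89).

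Around the receptors, 6 lists of pathway genes held 100 distinct measured genes. Of these, 0 passed limma's adjusted p under 0.05, against 0.244% of all genes. At an unadjusted limma p under 0.05 there were 5, or 5% against 4.82% of all genes. P467L and nontransgenic values were fully separate for 0 of the 100, and for 0.726% of the 19687 genes measured. Both shares are small, so counts of 0 among 100 do not set the lists apart. Ligand supply and delivery (17 of 20 measured, median difference 0.060) included Ephx2, soluble epoxide hydrolase, which degrades epoxy fatty acids. Ephx2 read 7.12 ± 0.35 (SD, n = 5) in nontransgenic and 6.71 ± 0.18 (SD, n = 7) in P467L aorta (difference -0.41 ± 0.14 SE; limma adjusted p = 0.698). Pnpla2, the triglyceride lipase that frees fatty acids, differed by 0.26 ± 0.14.

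Other receptors that pair with RXR (11 of 13 measured, median -0.011) held Nr1h3, the oxysterol receptor LXRα, at 0.25 ± 0.11 (SE; limma adjusted p = 0.986). Nr1i3, the xenobiotic receptor CAR, differed by -0.38 ± 0.17. Coactivators and mediator subunits (21 of 23, median -0.0031) were led by a pair of chromatin remodelling subunits, Smarcd3 at -0.17 ± 0.085 and Smarcd1 at 0.15 ± 0.082. In the corepressor list (13 of 15, median -0.027), Tbl1xr1, an exchange factor of the NCoR complex, read 6.65 ± 0.23 (SD, n = 5) against 6.32 ± 0.18 (SD, n = 7). Its difference of -0.33 ± 0.11 had the smallest p of the 100 genes (limma adjusted p = 0.696). Hdac4, a class IIa deacetylase, differed by -0.095 ± 0.070.

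PGC-1 partner factors (15 of 15, median -0.032) included Foxo1, a forkhead factor of insulin signalling, at -0.22 ± 0.081 (limma adjusted p = 0.733), and Nrf1, which drives nuclear genes of mitochondria, at -0.16 ± 0.089. PPAR target genes (25 of 30, median -0.057) had none at an unadjusted limma p under 0.05. Their smallest p-values belonged to Hadhb, a subunit of the mitochondrial trifunctional protein (-0.34 ± 0.21), and Angptl4, an inhibitor of lipoprotein lipase (-0.13 ± 0.096, mean under background).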

How the data were processed

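Total RNA of 12 thoracic aortas, 1 mouse each, was extracted with Trizol and a column, amplified from about 50 ng by a NuGen procedure and hybridised to exon arrays, per the labels' protocols. The authors deposited log2 intensities of the range RMA gives; the submitters' processing notes name RMA, Affymetrix Power Tools and build mm9, with versions not given in the notes used here. The RMA method corrects background, normalizes across arrays and shrinks differences of dim genes. The table held 101175 rows and 0 columns of other samples.

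Platform annotation named 22754 rows with 1 symbol, 1522 with several (not used) and 76899 with none; 22245 matched a RefSeq table of GRCm38.p6 by Entrez ID, with 0 symbols changed. Each of 19687 genes was represented by its brightest row. P467L minus nontransgenic was fitted in limma 3.58.1 (R 4.3.3), lmFit and eBayes, over all 12 arrays without covariates, with Benjamini-Hochberg adjustment over all genes. Intervals are 95% intervals of that fit, and ± is SE for differences and SD for levels. The fit was run on simulated data with independent noise, only to check that it returned the differences put in. Such data do not test the calls where arrays deviate together. Exact permutation tests used all 792 splits into 5 and 7 (smallest p 0.00126), and correlations 100000 permutations.

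Members and lists were chosen with earlier results of these data known. Of 208 list entries, 186 were measured, 10 lay on shared rows and 12 had no row named here. Genes named are the members, the 2 genes of each pathway list with the smallest p, list genes past the threshold, and the 3 genes most like each member above background. Both groups have replicates numbered 1 to 5. Arrays of equal number deviated together from their group means (correlations over genes 0.227 to 0.398 for all 5). Equal numbers were therefore treated as pairs in alternatives only. The main fit, the exact permutation tests and the main correlations took the arrays as unpaired. This pairing comes from the data, not from the labels, and the own number was the best match for only 3 of the 5 (not for nontransgenic replicates 1 and 4, which were closest to numbers 2 and 5). Alternatives were the replicate block, leaving out arrays, other normalizations, covariates, filters, variance models, array weights and other choices of row.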

Additional observations from a re-analysis of the deposited data

Results flagged for a closer look

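Rxrb in nontransgenic replicate 1 was 5.54, far from the other 4 nontransgenic aortas, which lay between 5.02 and 5.11. The skeletal muscle score of P467L replicate 4 was 2.32, far from the other 6 P467L aortas, which lay between -0.36 and -0.14. These were the 2 samples found by Dixon's test at 95% among 26 groups of values examined, where chance alone gives about 1 in 20.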

How the results depend on the processing

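Under all alternatives run, 0 receptors or coactivators passed limma's threshold. For the pathway genes the count was 0 in every alternative but the fit of all rows, where they were not counted. Leaving out each array gave 0 to 0 for both counts. The replicate block, which rests on 5 pairs, also gave 0 and changed no call. The smallest adjusted limma p of a member was 0.551 (Ppargc1b with the block, -0.42). The call counts over all genes that form the background moved more, from 48 to 30 with the block, 106 with the upper quartile as a covariate, 76 after quantile normalization, 8 without the 3 least correlated arrays and 4 when all rows were tested; leaving out each array gave 11 to 48. Ppara, Rxra and Ppargc1b kept their direction in all 24 settings (-0.53 to -0.13, 0.0023 to 0.10 and -0.50 to -0.21). Some of these settings cannot move a difference: the looser threshold, the other variance model, the background filter and the fit of all rows. The mean over the rows of a gene cannot move a gene with 1 row, such as Rxra.

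Small differences changed sign. Pparg was -0.021 with array weights and -0.047 without the 3 arrays. Ppard was 0.011 with array medians subtracted, 0.022 after quantile normalization and 0.016 with the replicate block. Rxrb was 0.011, 0.016 and, with array weights, 0.0031. Ppargc1a was 0.048 with the upper quartile as a covariate and 0.0092 after quantile normalization. Leaving out each array gave -0.048 to 0.079 for Pparg, -0.065 to 0.051 for Ppard, -0.043 to 0.089 for Rxrb, -0.047 to 0.0056 for Rxrg and -0.12 to 0.11 for Ppargc1a. The cause was not tested.

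Of the 28 pairs, 1 passed by Pearson r in the deposited values. The count by Pearson r was 0 after subtracting group means and 0 after quantile normalization. It was also 0 with the mean over arrays of equal number (a replicate block added after seeing the data), and 0 to 2 when each array was left out. By Spearman rho, Rxra with Rxrb passed after quantile normalization (rho = 0.84, adjusted permutation p = 0.0325). Counted by Pearson r, 0 of the 40 relations with scores passed, with 0 under the mean over arrays of equal number and 8 after quantile normalization. Those 8 include relations with the deposited upper quartile, which that normalization can itself impose. Leaving out each array gave 0 to 1 (1 without P467L replicate 3). Dim genes limit Rxrb and Rxrg, and Rxrb and Rxrg were left out of the fit of genes above background.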
